A study of Mus musculus with 12 samples.

Results

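The messages on astrocyte ribosomes of fine peripheral processes were compared with those on astrocyte ribosomes of the whole tissue, in 6 of the 12 libraries of the series. The series holds 4 groups of 3 libraries. The 2 groups compared are immunoprecipitates of tagged ribosomes: PAP TRAP (peripheral astrocyte process TRAP), taken from a synaptoneurosome layer, and cortex TRAP, taken from whole tissue. The other 2 groups, cortex input and synaptoneurosome input, are the RNA before each immunoprecipitation, and their values are given beside the results. The mice were C57/Bl6, on postnatal day 21, and cortex and hippocampus were used. They carry Rpl10a, a protein of the large ribosomal subunit, fused to eGFP under the Aldh1l1 promoter (Aldh1L1::RPL10a-eGFP). All were treated with cycloheximide (1 ug/mL), which holds ribosomes on their messages, and TTX (1 mM), a sodium channel blocker. The labels give every sample 1 extract protocol, with a sucrose gradient, and name the whole-tissue samples as such only in their sources. They do not say whether the 3 libraries of a group come from separate animals or from pools, so p-values measure the spread between these libraries, which may be technical.

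Translating ribosome affinity purification (TRAP) uses an antibody against the tag to collect tagged ribosomes with their messages from a lysate. A promoter decides which cells make the tag, so the method enriches the messages of that cell type without purifying them completely. Astrocytes send fine processes around synapses, where they take up glutamate and buffer potassium, and part of their protein is made there from localized messages, while transcription factors act in the nucleus of the cell body. A synaptoneurosome layer holds pinched-off presynaptic and postsynaptic elements, together with the processes that wrap them. A message is called process-rich below where it was higher in PAP TRAP than in cortex TRAP, and soma-rich where it was lower. Both words are relative to the average message of the libraries and name no measured place in a cell.

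Gene counts per library were 9944893 to 10671362 in PAP TRAP and 4918113 to 7858437 in cortex TRAP. Genes of the mitochondrial chromosome took 35.6% to 47.6% of them in PAP TRAP and 1.03% to 1.28% in cortex TRAP, which left 5595315 to 6786096 and 4864787 to 7777763 nuclear counts. The Spearman correlation across genes was 0.893 to 0.898 between cortex TRAP libraries and 0.865 to 0.906 between PAP TRAP libraries, where genes are not independent replicates. PAP TRAP replicate 2 lay nearest to cortex TRAP, at 0.743 to 0.767, where PAP TRAP replicates 1 and 3 had 0.657 to 0.697. Cortex TRAP replicate 1 and PAP TRAP replicate 3 stood apart in another way. In cortex TRAP replicate 1, 114 genes exceeded both other cortex TRAP libraries more than 4 times, and 62 of these were called lower in PAP TRAP. In PAP TRAP replicate 3, 115 genes exceeded both other PAP TRAP libraries in the same way, and 24 of these were called higher. The remaining libraries of the 2 groups had 10 to 52 such genes. Results that rest on cortex TRAP replicate 1 are given with and without it.

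The astrocyte label was checked against markers. Astrocyte markers held 10.1% to 13.8% of nuclear counts in cortex TRAP and 5.77% to 11.3% in PAP TRAP, and none of the 32 was at 0 in either group. Their share was 1.06% to 1.13% in cortex input and 4.69% to 5.76% in synaptoneurosome input. PAP TRAP replicate 1 (5.77%) thus lay barely above the highest library of its input. Aldh1l1, whose promoter drives the tag, stood at 83.7, 67.8 and 94.8 normalized CPM (counts scaled to library size) in cortex TRAP and 18.9, 37.7 and 28.7 in PAP TRAP. Neuron markers held 0.270% to 0.386% in cortex TRAP and 0.813% to 1.24% in PAP TRAP, against 2.29% to 2.49% in cortex input and 1.57% to 2.02% in synaptoneurosome input. Myelinating oligodendrocyte markers held 0.0709% to 0.102% and 0.856% to 1.12%, and microglia markers 0.00570% to 0.0112% and 0.0364% to 0.0547%. In synaptoneurosome input, myelinating oligodendrocyte markers held 0.733% to 0.922%, which overlapped PAP TRAP, and microglia markers 0.0885% to 0.198%. In cortex input the 2 shares were 0.534% to 0.582% and 0.0225% to 0.0292%. The shares of these 3 other cell classes were larger in every PAP TRAP library than in any cortex TRAP library, as were those of blood and B lineage markers. Oligodendrocyte precursor markers (0.0632% to 0.134% against 0.0422% to 0.0518%) and ependymal and choroid plexus markers (0.0308% to 0.0926% against 0.00175% to 0.00781%) had smaller shares in every PAP TRAP library. Endothelial and mural markers overlapped. Astrocyte markers overlapped too, with PAP TRAP replicate 2 (11.3%) above cortex TRAP replicate 1 (10.1%). In such bulk RNA, fewer cells of a type and less RNA per cell cannot be told apart.

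By the medians of the 42 lists described below, messages of the mitochondrial chromosome (log2 change 7.52) and of spectrins, ankyrins and plakins (4.15) were the most process-rich. They were followed by 11 vessel markers (3.93) and by dendritic, receptor and channel genes. The vessel median was 1.56 over 8 genes in a fit of the 6 TRAP libraries alone. The summed share of all 21 vessel markers was 0.0346% to 0.0549% of nuclear counts in cortex TRAP and 0.0261% to 0.0366% in PAP TRAP. Astrocyte transcription factors and antioxidant genes were the most soma-rich. Of 13364 genes tested, 4526 (33.9%) were called at an adjusted p below 0.05 in edgeR's quasi-likelihood test with Benjamini-Hochberg adjustment, 2577 of them (19.3%) higher in PAP TRAP and 1949 (14.6%) lower. The higher genes reached further: 603 were past 16-fold, against 177 of the lower genes. The lower count fell when any 1 library other than PAP TRAP replicate 2 was left out. It was 1179, 1264 and 1277 without cortex TRAP replicates 1, 2 and 3. Without PAP TRAP replicates 1, 2 and 3 it was 1287, 1969 and 1462, and with the 6 TRAP libraries alone 1285. The higher count stayed between 2279 and 2623 over all 6 omissions. The median log2 change of all genes was -0.28, and -0.11 with mitochondrial genes left out, so changes are read against that level.

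**Figure D1:**
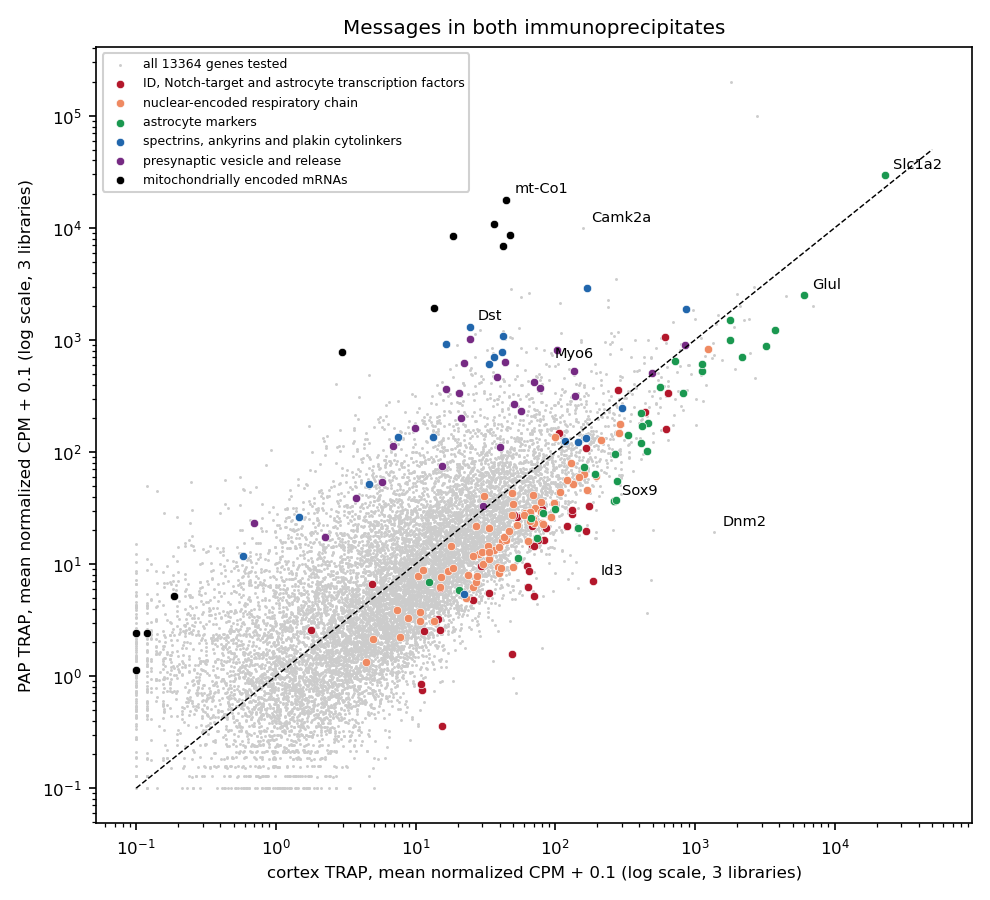
Mean normalized CPM plus 0.1 of each of the 13364 genes tested in cortex TRAP (x axis) and PAP TRAP (y axis), both log scales with 3 libraries a group. Grey points are all genes, coloured points are 6 gene lists, and the dashed line marks equal levels. Mitochondrial mRNAs and most spectrins and presynaptic genes lie above the line, most astrocyte transcription factors and respiratory chain genes below it, and Slc1a2 close to it.

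The most soma-rich group was that of ID proteins, Notch targets and other transcription factors of astrocytes. Of 40 tested, 29 were lower and 1 higher in PAP TRAP, with a median log2 change of -2.22 (all genes -0.28). Id3, an ID protein that binds basic helix-loop-helix factors and keeps them off DNA (chromosome 4, 136143497 to 136145755, plus strand, GRCm38), stood at 175, 191 and 191 normalized CPM in cortex TRAP and 9.04, 8.02 and 3.81 in PAP TRAP. The cortex TRAP libraries lay close together and far above all PAP TRAP libraries, a 26.7-fold fall (95% interval 15.4 to 46.3, adjusted p = 1.34e-08). Sox9, which specifies astrocytes, had 294, 221 and 270 against 26.1, 50.8 and 31.9, with no overlap. Its log2 change was -2.85 ± 0.29 (SE from the fit of all 12 libraries, 3 in each group). Its PAP TRAP replicate 2, the library nearest to cortex TRAP, was the highest of the 3.

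Other members of the same families are named here after their values were seen. Id1, Id2 and Id4 had log2 changes of -5.87 ± 1.13, -3.07 ± 0.35 and -2.22 ± 0.42, and the Notch targets Hes5 and Hes1 -5.03 ± 0.67 and -3.85 ± 1.09, all called. The Hedgehog effectors Gli2 and Gli3 fell by 2.61 ± 0.63 and 2.02 ± 0.49, while Gli1 was not called at 0.56 ± 1.23. Among nuclear factor I genes, Nfia was called at -0.92 ± 0.30, and Nfib and Nfix were not, at -0.62 ± 0.29 and 0.34 ± 0.23. Zbtb20, a zinc finger repressor, was the 1 member called higher, with 580, 624 and 638 in cortex TRAP and 943, 1215 and 1002 in PAP TRAP. Its change of 0.78 ± 0.21 turned to -1.01 when counts were corrected for transcript length, as described further on.

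Among regulators of mRNA stability, a pair of AU-rich binding proteins was soma-rich. Zfp36l1 and Zfp36l2 bind AU-rich elements and bring deadenylases to their target messages. Zfp36l1 had 150, 136 and 148 normalized CPM in cortex TRAP and 6.58, 9.75 and 1.79 in PAP TRAP, a log2 change of -4.58 ± 0.50 (adjusted p = 7.8e-07). Zfp36l2 had 35.5, 33.8 and 57.6 against 5.27, 6.61 and 3.57, a change of -3.04 ± 0.46, again with no overlap. Of 23 decay and AU-rich binding proteins, 15 were not called, 7 were lower (4 without cortex TRAP replicate 2) and 1 was higher (3 without cortex TRAP replicate 1), Pum2, a repressor of translation, at 1.70 ± 0.25, with a median of -0.78. Among 334 zinc finger Zfp genes, 23 were higher and 32 lower (21 and 19 lower without cortex TRAP replicates 1 and 3), shares below those of all genes. Of the higher ones, Zfp365 had the smallest p, at 4.40 ± 0.26.

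Antioxidant, metallothionein and serine genes were the second soma-rich group. Astrocytes supply serine and glutathione to neurons and bind zinc and copper with metallothioneins. Of 25 members, 19 were lower (13 to 15 when any 1 library was left out) and none higher, with a median of -1.80. Mt1, a metallothionein, had 876, 732 and 1444 normalized CPM in cortex TRAP and 97.9, 225 and 203 in PAP TRAP (log2 change -2.54 ± 0.35), with no overlap. Prdx6, a peroxiredoxin, had 713, 649 and 572 against 87.2, 193 and 105 (-2.33 ± 0.31). Psph and Shmt2, serine enzymes of the list, rest partly on 1 library. Psph, the last step of serine synthesis, was at 280, 68.8 and 43.7 against 3.86, 11.7 and 9.09, a change of -3.99 and of -2.64 without cortex TRAP replicate 1. Shmt2, which turns serine into glycine in mitochondria, went from -4.08 to -2.08 in the same way.

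Defining astrocyte genes were lower as well, by smaller steps. Of the 32 astrocyte markers, 27 were lower and none higher, with a median of -1.43. The lower count was 20 to 23 when any 1 library other than PAP TRAP replicate 2 was left out. Gpr37l1, a G-protein-coupled receptor, had 360, 198 and 262 normalized CPM in cortex TRAP and 28.8, 52.6 and 30.4 in PAP TRAP (-2.87 ± 0.34). Glul, glutamine synthetase, had 5788, 5278 and 7047 against 1586, 3445 and 2522 (-1.26 ± 0.25), and Slc1a3, the transporter GLAST, 1078, 1106 and 1182 against 385, 713 and 493 (-1.08 ± 0.24). For each of the 3, no PAP TRAP library reached any cortex TRAP library. Aldh1l1 itself was lower by 1.53 ± 0.42, a call that ended without cortex TRAP replicate 3 (-1.27, adjusted p = 0.0548) or PAP TRAP replicate 1 (-1.30, adjusted p = 0.0539).

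Membrane, lipid and glycolysis genes of astrocytes were lower in part. Of 16 water, potassium and gap junction genes, 10 were lower, with a median of -1.29, among them Atp1b2, a sodium pump subunit (-1.87 ± 0.24), Hepacam, an adhesion partner of the MLC1 complex (-2.0 ± 0.28), Aqp4, a water channel (-1.28 ± 0.33), and Gja1, connexin 43 (-1.59 ± 0.35). The 1 higher member was Slc12a2, a sodium-potassium-chloride cotransporter, at 2.31 ± 0.36. Of 22 cholesterol synthesis genes, 11 were lower (7 without PAP TRAP replicate 1) and 1 higher, with Msmo1 at 76.8, 89.9 and 105 against 20.1, 21.0 and 23.1, and of 25 fatty acid genes 10 were lower (6 without cortex TRAP replicate 1 or 3) and 14 were not called, with Acsbg1, an acyl-CoA synthetase of astrocytes, at -2.17 ± 0.33. In apolipoprotein and lipid export, 6 of 15 were lower, with Lcat, which esterifies cholesterol, at -2.04 ± 0.37, and 4 were higher, with a median of -0.36 (4 lower and 5 higher without cortex TRAP replicate 3). Among 26 glycolysis and lactate genes, 8 were lower and 3 higher, and the enolases went opposite ways: Eno1, the common form, at -1.90 ± 0.32 and Eno2, the neuronal form, at 1.58 ± 0.29. Aldoc, the aldolase of astrocytes, was at -1.63 ± 0.26.

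Small housekeeping messages made up a further soma-rich group. Of 72 nuclear-encoded respiratory chain subunits, 47 were lower and none higher, with a median of -1.30. Sdhc, a membrane anchor of complex II, had 198, 158 and 153 normalized CPM in cortex TRAP and 44.5, 53.9 and 37.6 in PAP TRAP (-1.90 ± 0.26). Of 72 cytosolic ribosomal protein genes, whose near-identical copies make counts uncertain, 20 were lower with a median of -1.22, but only 5 to 7 when any cortex TRAP library or PAP TRAP replicate 1 or 3 was left out. Proteasome subunits gave 15 lower and 1 higher of 36, with a median of -1.31 (9 lower without cortex TRAP replicate 1 or 2). Translation factors and their regulators gave 20 lower and 4 higher of 63 (9 lower without cortex TRAP replicate 1 or 3 and 11 without PAP TRAP replicate 1), led by Eif1, which helps select the start codon, at 78.6, 89.1 and 78.4 against 13.2, 23.8 and 21.3, and, on the other side, Eef2, the translocation factor of elongation, at 1.31 ± 0.28. Leaving out cortex TRAP replicate 3 gave 30 lower respiratory chain genes.

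**Figure D2:**
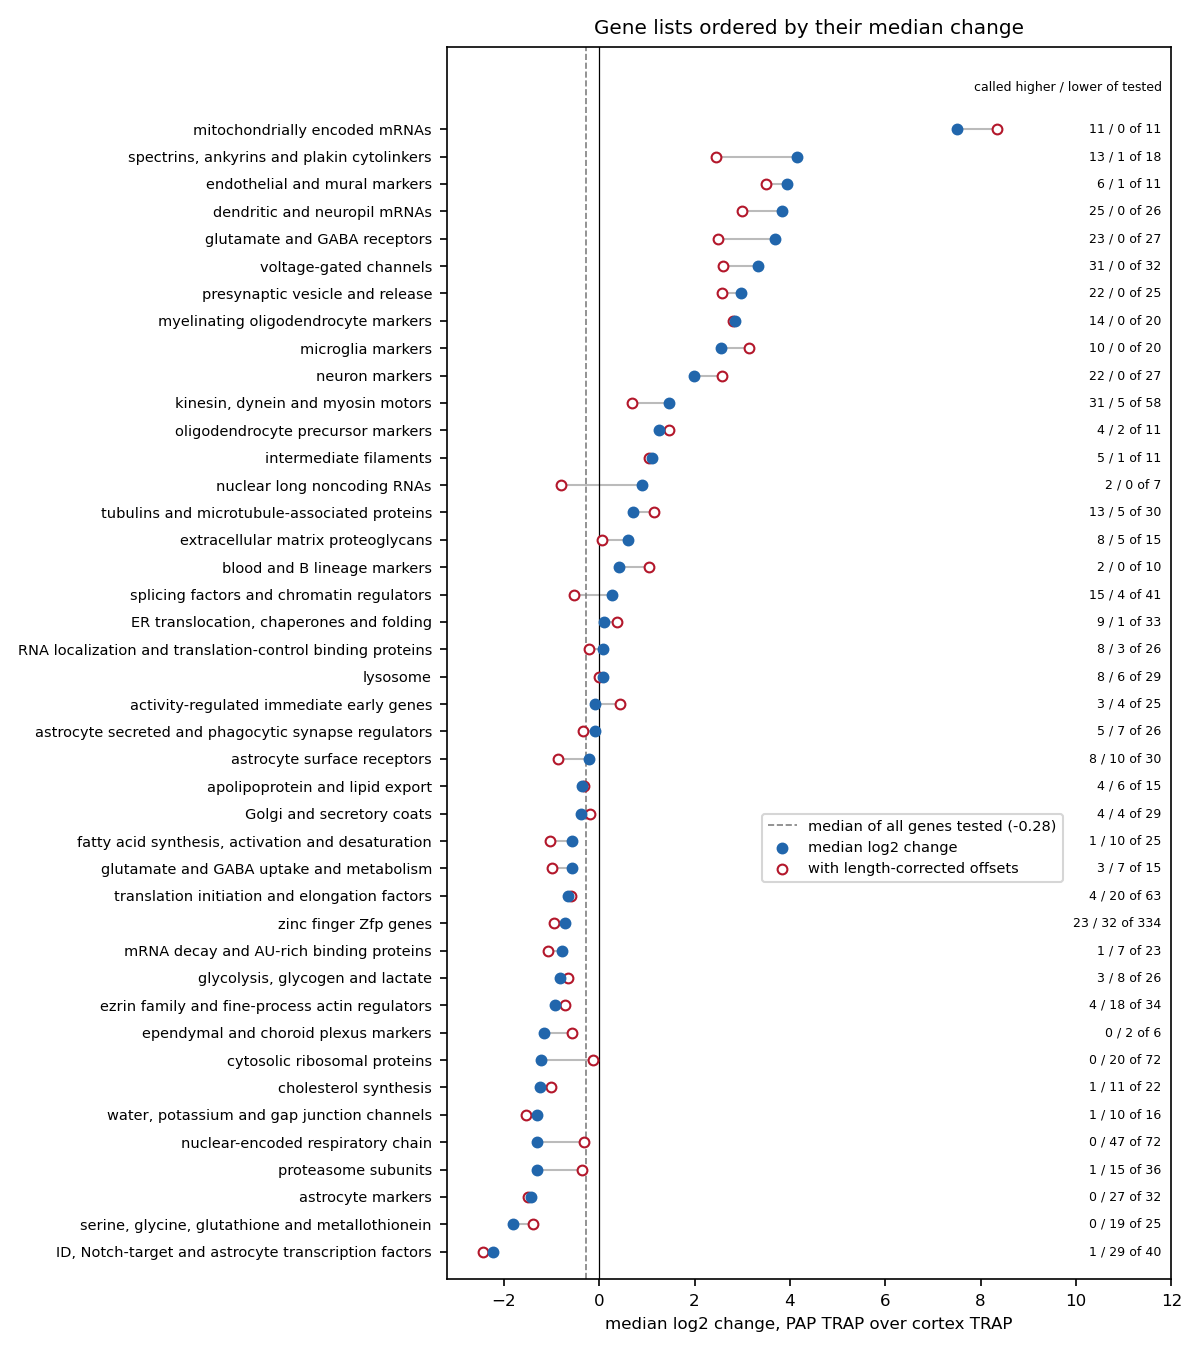
Median log2 change of PAP TRAP over cortex TRAP for the 42 gene lists (filled circles) and the same with length-corrected offsets (open circles). The dashed line is the median of all genes tested (-0.28), and the numbers at the right give members called higher and lower of those tested. Mitochondrial mRNAs (7.52) lie at the top, then spectrins (4.15), endothelial and mural markers (3.93) and the neuronal and channel lists, with transcription factors at the bottom (-2.22), and the open circles of respiratory chain, ribosomal protein and proteasome genes lie near the dashed line.

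Among messages higher in cortex TRAP than in its own input (15.9% of genes tested), few were process-rich: 31 were higher in PAP TRAP by the rule used for naming genes (average log2 CPM of 4 or more and no overlap between groups), against 657 lower. Over all genes the same rule gave 1629 higher and 901 lower. The pool was chosen by high cortex TRAP values, which the comparison shares, so this split is a description and no test. Amot, angiomotin, a scaffold of the Hippo pathway at cell junctions (X chromosome, 145446425 to 145505181, minus strand), had 35.9, 27.4 and 51.4 normalized CPM in cortex TRAP and 266, 288 and 339 in PAP TRAP. The groups lay far apart, with a log2 change of 2.96 ± 0.34 (adjusted p = 1.42e-06). Myo6, a myosin that walks toward the minus end of actin and works in endocytosis (chromosome 9, 80165031 to 80311729, plus strand), had 89.2, 84.9 and 83.1 against 584, 628 and 626, a 7.15-fold rise (95% interval 4.68 to 10.9). It was the member with the tightest libraries.

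Lrp1, the large receptor that takes up apolipoprotein E particles, had 76.4, 65.2 and 89.4 normalized CPM in cortex TRAP and 531, 360 and 591 in PAP TRAP (2.68 ± 0.27). Zc3h7b, an RNA-binding zinc finger protein, had 46.7, 48.9 and 40.9 against 198, 142 and 162 (1.88 ± 0.26). Arrb1, beta-arrestin 1, which ends receptor signalling, had 194, 78.5 and 116 against 323, 198 and 334 (1.14 ± 0.30). In all 3, the lowest PAP TRAP library lay above the highest cortex TRAP library, which the rule that named them required. Amot, Myo6, Lrp1, Zc3h7b and Arrb1 kept their calls in each of the 16 alternative analyses, length correction included.

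The other 7 of the 12 largest rises in this pool had several functions. Ptprz1, a receptor phosphatase of glia that binds matrix and pleiotrophin, had 272, 326 and 285 normalized CPM in cortex TRAP and 745, 971 and 774 in PAP TRAP (1.5 ± 0.21). Ank2, ankyrin-B, had 980, 891 and 735 against 1843, 1702 and 2111 (1.12 ± 0.21). Fat1, a giant protocadherin, was at 1.56 ± 0.40, Neo1, a netrin and RGM receptor, at 1.32 ± 0.26, Cdh2, N-cadherin, at 1.23 ± 0.27, and Itpr2, the main IP3 receptor of astrocytes, at 1.19 ± 0.44. Hdac5, a histone deacetylase, had 1.32 ± 0.43 and 2.39 without cortex TRAP replicate 2.

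These 7 calls are less firm than the first 5. Corrected for length, Ptprz1 was at 0.07, Neo1 at -0.01, Fat1 at -0.19, Itpr2 at -0.30, Cdh2 at 0.64 and Hdac5 at 1.05, none called, and Ank2 at -0.67, called lower (adjusted p = 0.0184). The Hdac5 call also ended when cortex TRAP replicate 1 or 3, or PAP TRAP replicate 1, was left out, with adjusted p from 0.0598 to 0.0846. That of Itpr2 ended when cortex TRAP replicate 1 or 2, or PAP TRAP replicate 2 or 3, was left out, with adjusted p from 0.0645 to 0.169.

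The largest falls in the same pool of cortex TRAP-enriched messages included several that 1 library made. Dnm2, dynamin 2, stood at 4076 normalized CPM in cortex TRAP replicate 1 and at 29.5 and 30.6 in the others, against 14.9, 17.3 and 25.6 in PAP TRAP. Its log2 change of -6.16 became -0.51 (adjusted p = 0.432) without that library. In the same way Wipi1, an autophagy protein, went from -4.63 to -0.63, Usp40, a ubiquitin protease, from -3.61 to -1.28, and Snrpa, a U1 spliceosome protein, from -3.60 to -1.04, with adjusted p from 0.112 to 0.365. Scnm1, a splicing factor, went from -5.58 to -2.65 and Banf1, a chromatin-bridging protein, from -4.01 to -2.32, and both kept their calls. Klf15, a glucocorticoid-responsive transcription factor, had -3.79 with all libraries and -3.0 without replicate 1. Ttr, the thyroid hormone carrier of the choroid plexus, had 393, 268 and 122 in cortex TRAP and 32.8, 19.8 and 7.30 in PAP TRAP. The ependymal and choroid plexus list moved with it, from 0.0308% to 0.0926% of nuclear counts in cortex TRAP to 0.00175% to 0.00781% in PAP TRAP, with 2 of 6 tested members lower and 5 of 11 at 0 in all PAP TRAP libraries, and its part in the Ttr value was not tested.

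**Figure D3:**
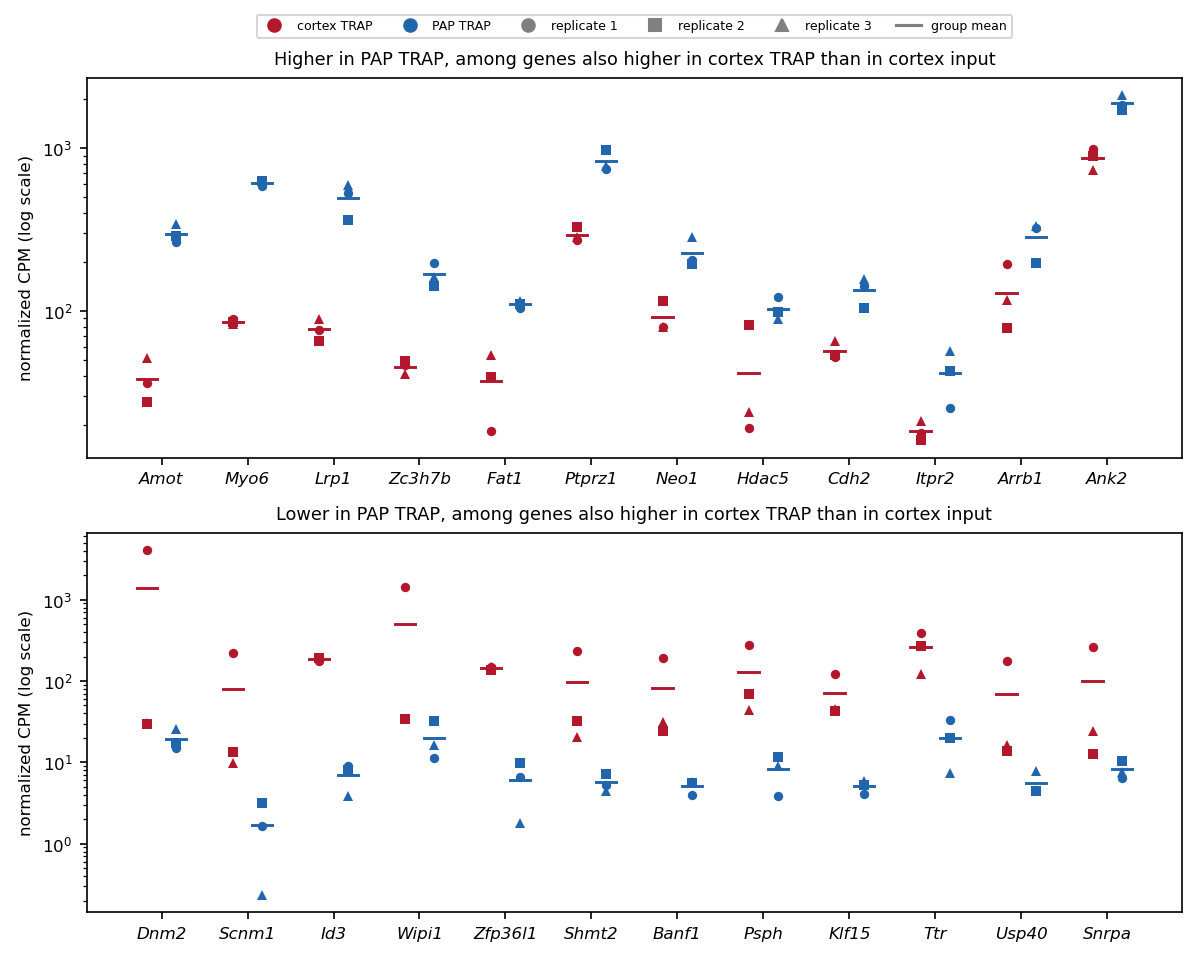
Normalized CPM (log scale) of each library for the 12 largest rises (upper panel) and 12 largest falls (lower panel) in PAP TRAP among genes higher in cortex TRAP than in cortex input. Red symbols are cortex TRAP, blue symbols PAP TRAP, symbol shapes the replicates and bars the means of 3 libraries. Myo6 and Id3 show separate, tight groups, while the cortex TRAP mean of Dnm2 rests on replicate 1 at 4076.

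Membrane-cytoskeleton genes were strongly process-rich. Spectrins and ankyrins form the submembrane lattice, and plakins tie actin, microtubules and intermediate filaments together. Of 18 members, 13 were higher and 1 lower, with a median of 4.15. Dst, dystonin, a plakin (chromosome 1, 33908225 to 34308661, plus strand), had 33.4, 18.5 and 21.0 normalized CPM in cortex TRAP and 1391, 1041 and 1509 in PAP TRAP, a 54.0-fold difference (95% interval 34.6 to 84.3). Sptbn1, beta-II spectrin, had 371, 61.1 and 70.3 against 2870, 2737 and 3155 (4.12 ± 0.50, and 5.60 without cortex TRAP replicate 1). For both, the PAP TRAP libraries lay several-fold above every cortex TRAP library.

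Motors and microtubule genes were split. Of 58 kinesin, dynein and myosin genes, 31 were higher and 5 lower. Myo5a, which carries cargo on actin into spines, had 44.5, 40.5 and 41.2 normalized CPM in cortex TRAP and 1314, 1015 and 1289 in PAP TRAP (4.84 ± 0.24), and Kif5c, a neuronal kinesin heavy chain, was at 4.72 ± 0.27. Dynll1, the small dynein light chain, was lower, at 75.7, 74.5 and 75.1 against 16.4, 22.6 and 22.3 (-1.88 ± 0.31). Of 30 tubulin and microtubule-associated genes, 13 were higher and 5 lower (2 or 3 lower without any 1 library other than PAP TRAP replicate 2). Map2, of dendrites, and Map1a, of dendrites and axons, rose by 2.71 ± 0.23 and 4.54 ± 0.28, and Tubb2a, a tubulin, fell by 1.34 ± 0.29. Intermediate filaments gave 5 higher and 1 lower of 11: Nefl, of neurofilaments, at 4.11 ± 0.35 and Gfap, of astrocytes, at -1.34 ± 0.29.

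Actin regulators of fine processes pointed the other way from the spectrins. Of 34 tested, 18 were lower and 4 higher (2 higher without PAP TRAP replicate 3), with a median of -0.94. The lower count was 12 to 15 when any 1 library other than PAP TRAP replicate 3 was left out, and 19 without that replicate. Cdc42ep4, a septin-binding Cdc42 effector of astrocytes, had 158, 140 and 144 normalized CPM in cortex TRAP and 9.74, 29.5 and 15.4 in PAP TRAP (-3.02 ± 0.42). Cfl1, cofilin, which severs actin, had 286, 355 and 375 against 84.9, 113 and 104 (-1.75 ± 0.27). Ezr, ezrin, which links actin to the membrane of peripheral astrocyte processes as a protein, had 211, 179 and 264 against 77.0, 132 and 142 (-0.90 ± 0.30). Every PAP TRAP library was below every cortex TRAP library for these 3. The Ezr call ended when any 1 cortex TRAP library, or PAP TRAP replicate 1, was left out, with adjusted p from 0.0507 to 0.192.

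In 5 neuronal lists, most members were process-rich. Of 26 dendritic and neuropil messages, 25 were higher (median 3.83), of 25 presynaptic genes 22 (2.98), of 27 glutamate and GABA receptor genes 23 (3.69), of 32 voltage-gated channels 31 (3.34) and of 27 neuron markers 22 (2.00), with none lower. Bsn, bassoon, a scaffold of the release site, had 21.0, 25.3 and 27.6 normalized CPM in cortex TRAP and 1257, 799 and 1010 in PAP TRAP (5.38 ± 0.28). Camk2a, a kinase of spines whose message is localized to dendrites, had 272, 107 and 94.2 against 11740, 7554 and 10690 (5.99 ± 0.39, and 6.76 without cortex TRAP replicate 1). Grin2b, an NMDA receptor subunit, had 129, 93.1 and 103 against 2590, 1606 and 2182 (4.30 ± 0.26). PAP TRAP replicate 2 was the lowest PAP TRAP library for all 3 genes.

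The most read messages of synapses and processes ranged widely. Snap25, a fusion protein of synaptic vesicles, had 666, 892 and 976 normalized CPM in cortex TRAP and 983, 685 and 1043 in PAP TRAP, overlapping groups with a change of 0.10 (95% interval -0.45 to 0.65). Shank1, a postsynaptic scaffold, rose by 5.34 ± 0.34, and Apc, a microtubule plus-end protein, by 3.67 ± 0.25. Among the immediate early genes of activity, 3 were higher (5 without cortex TRAP replicate 2) and 4 lower (1 without cortex TRAP replicate 3) of 25. Arc, whose message is carried into active dendrites, had 7.36, 19.5 and 12 against 121, 266 and 139 (3.77 ± 0.41), and Btg1, an antiproliferative gene, had 33.9, 14.5 and 19.6 against 0.439, 2.81 and 1.79 (-3.75 ± 0.68).

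Beside these values stand those of each immunoprecipitation over its own input, from the same fit. They share libraries with the comparison and are no independent support. For dendritic messages the median log2 change was -2.23 in cortex TRAP over cortex input, 0.89 in PAP TRAP over synaptoneurosome input and 0.78 between the inputs. For presynaptic genes the 3 medians were -3.11, -0.13 and -0.23, for voltage-gated channels -3.02, -0.44 and 1.27, and for spectrins and their relatives -1.58, 1.28 and 0.92. The dendritic and spectrin lists thus had medians above input in PAP TRAP, and presynaptic and channel genes medians below it. Camk2a was at -3.11 in cortex TRAP and 1.70 in PAP TRAP over the respective input, Dst at -2.06 and 1.89, Bsn at -3.30 and 0.72, and Grin2b at -3.86 and -0.67. The share of neuron markers moved with these results, as given above, and its part in them was not tested.

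**Figure D4:**
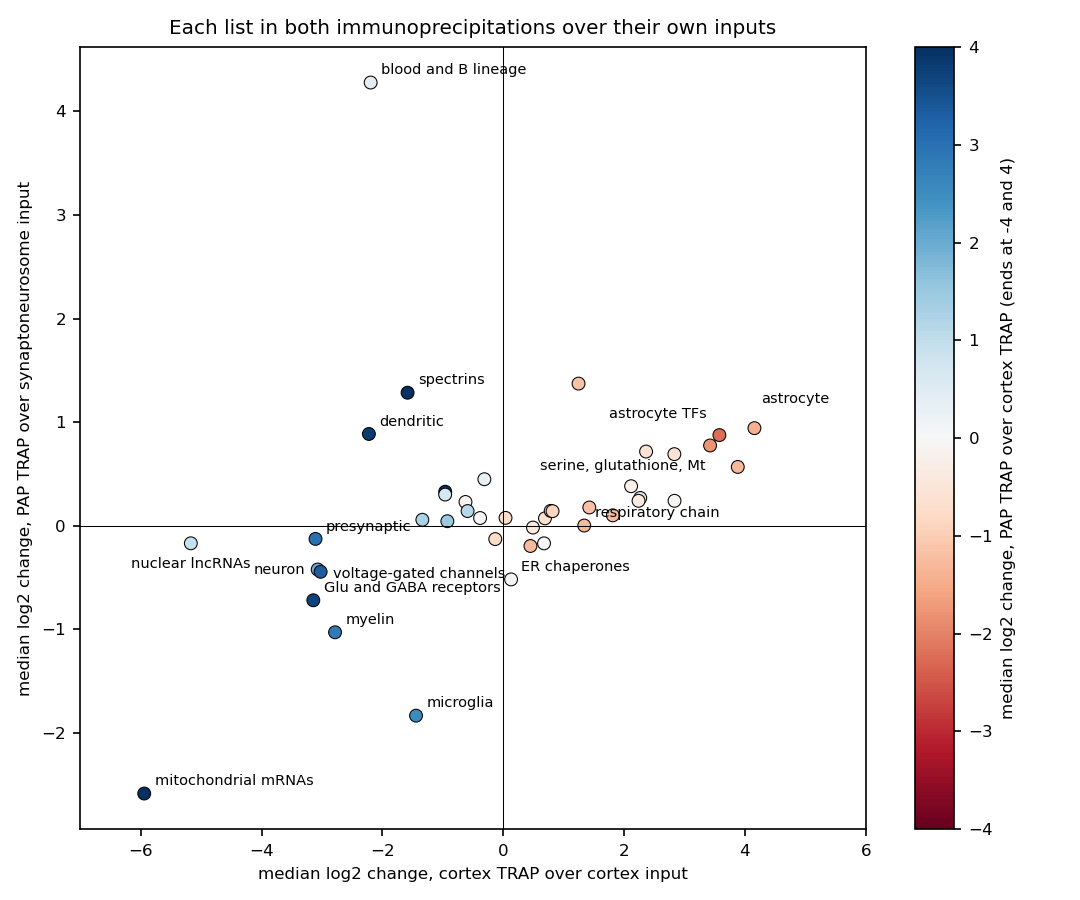
Median log2 change of each of the 42 lists in cortex TRAP over cortex input (x axis) and in PAP TRAP over synaptoneurosome input (y axis), 3 libraries a group. Colour gives the median change of PAP TRAP over cortex TRAP, blue for higher. Dendritic messages (-2.23, 0.89) and spectrins (-1.58, 1.28) lie at the upper left, and astrocyte transcription factors (3.58, 0.88) at the right, above both inputs.

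The soma-rich groups read differently on that scale. Astrocyte transcription factors had medians of 3.58 in cortex TRAP over its input, 0.88 in PAP TRAP over its input and 0.25 between the inputs, and astrocyte markers 4.16, 0.94 and 1.70. Id3 was at 4.67, 0.53 and -0.60, and Mt1 at 5.12, 1.71 and 0.87. Respiratory chain subunits had 1.34, 0.00 and 0.04. Both astrocyte lists thus had medians above input in both immunoprecipitates, with the larger difference in cortex TRAP. Of the process-rich messages of the cortex TRAP-enriched pool, Amot was at 2.19 and 2.58 over input in cortex TRAP and PAP TRAP and Myo6 at 1.64 and 1.93, while Ptprz1 was at 2.27 and 1.05.

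Markers of myelin and microglia also held process-rich messages. Of 20 myelin markers, 14 were higher and none lower (median 2.84). Mbp, a myelin protein whose message travels to the myelin sheath, had 28.9, 75.7 and 39.3 normalized CPM in cortex TRAP and 2508, 2547 and 3433 in PAP TRAP (5.88 ± 0.36, and 6.50 without cortex TRAP replicate 2). Tspan2, a tetraspanin of myelin, had 15.9, 11.9 and 11.8 against 162, 142 and 170. Microglia markers gave 10 higher and none lower of 20. Csf1r, the receptor for colony stimulating factor and the member with the smallest p, was at 0.963, 1.33 and 1.14 against 34.6, 31.5 and 48.2. Over their own inputs, Mbp was at -2.63 in cortex TRAP and 1.75 in PAP TRAP, Tspan2 at -3.90 and -1.02, and Csf1r at -3.38 and -1.18.

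Smaller marker lists were mixed. Oligodendrocyte precursor markers gave 4 higher and 2 lower of 11, with Gpr17 at 2.55 ± 0.39 and Cspg5, which astrocytes also make, at -1.63 ± 0.36 (-0.80 without cortex TRAP replicate 1). Endothelial and mural markers gave 6 higher and 1 lower of 11 tested (3 higher without PAP TRAP replicate 3), with a median of 3.93. In the fit of the 6 TRAP libraries alone the median was 1.56 over 8 genes. The summed share of nuclear counts of all 21 was 0.0346% to 0.0549% in cortex TRAP and 0.0261% to 0.0366% in PAP TRAP. That of precursor markers was 0.0632% to 0.134% and 0.0422% to 0.0518%. Of the 21 endothelial and mural markers matched, Kcnj8, Kdr and Tek were at 0 in all cortex TRAP libraries and Cldn5 and Ly6c1 in all PAP TRAP libraries. Blood and B lineage markers gave 2 higher of 10, Lcp1, an actin bundler of leukocytes, and Ighm, an immunoglobulin chain. Cd79a, Cd79b, S100a8 and S100a9 were at 0 in all PAP TRAP libraries.

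The mitochondrial chromosome gave the largest differences. All 11 mRNAs tested were higher, by 5.72 to 8.85 on the log2 scale. mt-Co1, a subunit of cytochrome oxidase, had 37.2, 49.4 and 46.0 normalized CPM in cortex TRAP and 22750, 15060 and 15950 in PAP TRAP, and mt-Nd1, a subunit of complex I, 23.3, 36.2 and 50.0 against 15950, 9364 and 7100. These messages are read by mitochondrial ribosomes, which do not carry the tag. Over its own input, mt-Co1 was at -6.50 in cortex TRAP and -1.39 in PAP TRAP, and between the inputs at 3.55. The nuclear-encoded partners of these subunits went down, as given above.

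A set of abundant astrocyte messages showed no call. Slc1a2, the transporter GLT-1, was the most read nuclear message among these, with 16690, 24680 and 27560 normalized CPM in cortex TRAP and 20220, 39740 and 28240 in PAP TRAP. The groups overlapped, with a log2 change of 0.36 (95% interval -0.15 to 0.87). Cpe, carboxypeptidase E, had 0.16 (-0.36 to 0.68), Gpm6b, a proteolipid, 0.37 (-0.21 to 0.94), and Scd2, a desaturase, 0.21 (-0.30 to 0.72). These intervals leave out a 2-fold change in either direction and do not show equality. Qk, an RNA-binding protein of glia, had -0.56 (-1.09 to -0.03) and an adjusted p of 0.0969, and -0.86 (adjusted p = 0.0124) without PAP TRAP replicate 2. Corrected for length, Slc1a2 and Qk were called lower at -1.32 and -2.04, and Cpe was called higher at 0.72.

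Secretory, matrix and receptor genes held both directions. ER translocation and chaperone genes gave 9 higher and 1 lower of 33, with Hspa5, the chaperone BiP, at 46.4, 41.0 and 31.0 normalized CPM in cortex TRAP and 160, 92.0 and 144 in PAP TRAP, and Hsp90b1, its partner GRP94, at 1.84 ± 0.31. Golgi and coat genes gave 4 and 4 of 29 (1 lower when cortex TRAP replicate 1 was left out, and 2 when either cortex TRAP replicate 3 or PAP TRAP replicate 1 was). These Golgi shares, 13.8% each way, were not above the 19.3% higher and 14.6% lower of all genes. Lysosome genes gave 8 and 6 of 29 (1 lower without cortex TRAP replicate 1), with the proton pump subunits Atp6v0a1 and Atp6ap1 at 3.08 ± 0.32 and 2.18 ± 0.25. Proteoglycans and their partners gave 8 higher and 5 lower of 15 (3 lower without cortex TRAP replicate 3 or either of PAP TRAP replicates 1 and 3): Hapln4, a link protein of perineuronal nets, at 3.66 ± 0.34, and Bcan, brevican, at -1.26 ± 0.31. Astrocyte surface receptors gave 8 and 10 of 30 (5 lower without cortex TRAP replicate 2 and 6 without PAP TRAP replicate 1), among them Gabbr2, a GABA-B receptor subunit, at 1.31 ± 0.23 and F3, tissue factor, at -2.28 ± 0.42. Secreted and phagocytic regulators of synapses gave 5 and 7 of 26, and uptake and metabolism of glutamate and GABA 3 and 7 of 15. When any cortex TRAP library or PAP TRAP replicate 1 was left out, 3 or 4 were lower in the first list and 4 in the second.

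RNA-binding and chromatin genes were split by family. RNA localization and translational control gave 8 higher and 3 lower of 26. Purb, which binds single-stranded nucleic acids and is found in transported granules, had 244, 228 and 262 normalized CPM in cortex TRAP and 1064, 770 and 928 in PAP TRAP (1.91 ± 0.21), and Msi1, Musashi-1, of progenitors and astrocytes, 94.3, 121 and 103 against 27.2, 35.6 and 17.5 (-1.99 ± 0.33). Splicing factors and chromatin regulators gave 15 higher and 4 lower of 41. Chd3, a large chromatin remodeller, rose by 3.83 ± 0.29, and the small splicing factors Srsf2 and Srsf7 fell by 2.07 ± 0.42 and 2.05 ± 0.45. Of 7 nuclear long noncoding RNAs, 2 were higher and none lower, and Malat1, a nuclear RNA, was not called at -0.22 (95% interval -1.12 to 0.67).

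Process-rich messages were long and soma-rich messages short. The median coding length was 2184 bases in genes called higher, 894 in genes called lower and 1428 in all 12470 coding genes tested. Below 0.5 kb, 5.0% of 1020 genes were higher and 38.2% lower, and above 4 kb 49.7% of 953 were higher and 1.57% lower. The bins between followed in order, at 8.62%, 17.6% and 29.7% higher and 24.4%, 12.8% and 6.32% lower. The median 3′ UTR was 1756 bases in higher, 924 in lower and 1154 in all genes. Across genes, the Spearman correlation with the log2 change was 0.41 for coding length, 0.24 for 3′ UTR length and 0.02 for GC content, as a description of these libraries.

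Over all genes, the trend was larger in cortex TRAP over its input than in PAP TRAP over its input. From the shortest to the longest bin, the median log2 change went from -1.35 to 1.33 in PAP TRAP over cortex TRAP. In cortex TRAP over cortex input it went from 1.01 to -0.94, in PAP TRAP over synaptoneurosome input from 0.11 to 0.29, and between the inputs from -0.39 to 0.21. Among the genes higher in cortex TRAP than in its input, the medians also ran upward, from -1.60 in 310 genes below 0.5 kb to -0.33 in 89 genes above 4 kb. In that pool the medians rose between the inputs from 0.02 to 1.07, and in PAP TRAP over its input from 0.53 to 0.85. Per the labels, all libraries were amplified by SPIA and sheared in 1 way. RNA size and integrity were not measured here, and their part in the trend was not tested.

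**Figure D5:**
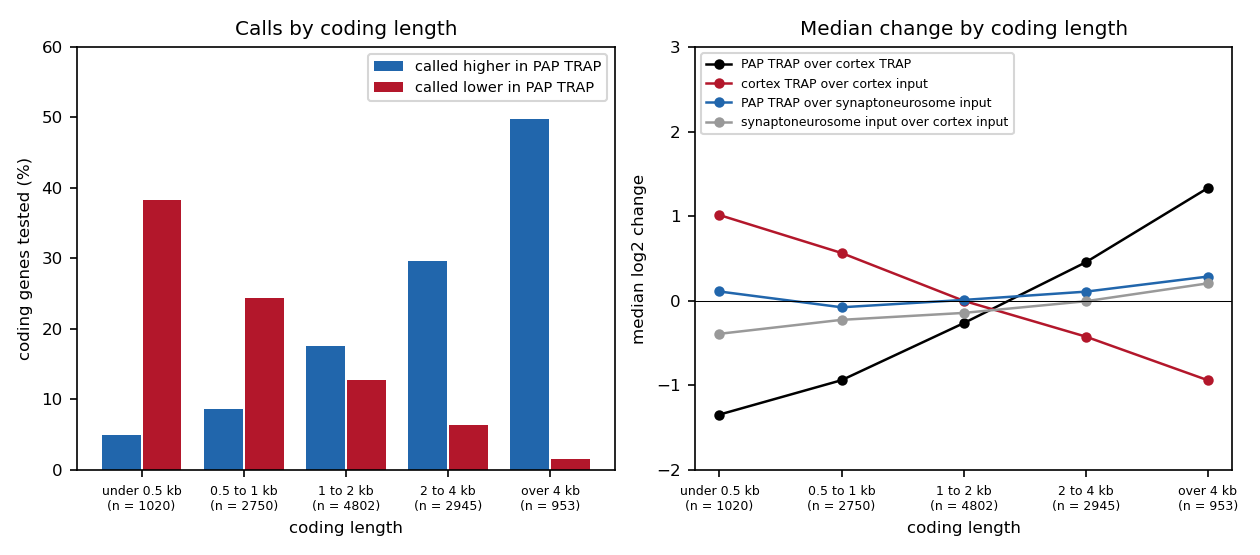
Left, share of coding genes called higher (blue) and lower (red) in PAP TRAP in 5 bins of coding length. Right, median log2 change in the same bins for PAP TRAP over cortex TRAP (black), each immunoprecipitate over its own input (red and blue) and the inputs compared (grey). Calls change from 38.2% lower in the shortest bin to 49.7% higher in the longest, and the red line falls while the blue line stays near 0.

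With counts corrected for transcript length, the families separated. Astrocyte transcription factors gave 30 lower of 40 (median -2.43), astrocyte markers 24 of 32 (-1.5) and antioxidant and serine genes 13 of 25 (-1.38). Respiratory chain genes fell from 47 lower to 3 (median -0.31), proteasome genes from 15 to 6, and ribosomal protein genes from 20 to 1. On the process-rich side, 24 dendritic messages, 21 presynaptic genes, 26 channels and 12 spectrins and relatives were called higher, with medians of 2.99, 2.57, 2.59 and 2.45. Motors went from 31 higher to 20, and splicing and chromatin genes from 15 higher and 4 lower to 5 and 13. Surface receptors had 3 higher and 14 lower, and Zfp genes 12 and 65.

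Sequence elements of the 3′ UTR followed its length. Quaking proteins bind ACTAAC and ACTAAT, which were searched on the sense strand as examples of a glial localization and stability element. One of them was present in 41.6% of the higher genes, 31.1% of the lower genes and 34.0% of all, but per kilobase the means were 0.32, 0.38 and 0.34 sites. For TATTTAT, an AU-rich heptamer, the shares were 40.2%, 23.6% and 30.2%, with 0.30, 0.28 and 0.29 sites per kilobase. For TGTANATA, read by Pumilio proteins, they were 38.3%, 22.5% and 27.4%, with 0.27, 0.25 and 0.25. A larger share of the process-rich messages held each element, at nearly the same density.

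Examples of the Quaking element from both sides follow, from messages chosen because they hold it. Each is 26 bases of the 3′ UTR of a GENCODE M21 transcript (GRCm38), 5′ to 3′ on the strand of the message, with the element in capitals. The first 3 are process-rich, the next 2 soma-rich and the last 2 not called.
Myo6, chr9:80309252-80309277, plus strand: ccttgtctctACTAATaattgaaaat
Ptprz1, chr6:23052753-23052778, plus strand: tatccaagaaACTAACcctgtttctg
Arrb1, chr7:99603362-99603387, plus strand: tagcatttggACTAACctctcctgtc
Zfp36l1, chr12:80108912-80108937, minus strand: acccctgttgACTAATcttgcctggg
Psph, chr5:129765657-129765682, minus strand: taatatgactACTAATtacatggaga
Slc1a2, chr2:102784369-102784394, plus strand: tgtcacatacACTAACtccaggaacc
Qk, chr17:10206540-10206565, minus strand: ataccaacctACTAACtctggactat
Myo6 held 5 such elements in its 3′ UTR, Slc1a2 held 4 and Qk itself 5, while the other 4 messages held 1 each. A match is a description of letters, and binding was not measured.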

How the data were processed

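Of 12 sequenced libraries, the 3 of PAP TRAP and 3 of cortex TRAP were compared, grouped by their labels. Per the labels' protocols, 2 ng of RNA gave cDNA that was amplified by SPIA, an isothermal linear method, and sheared. No molecular identifiers are mentioned, so a count is not an independent molecule. The authors deposited raw counts for each gene as whole numbers, judged from the values. The submitters' processing notes name Trimmomatic 0.32, Bowtie2, STAR and HTSeq. The sources used here do not give the genome build, the annotation or the strandedness of the counting. Genes that overlap, lie antisense or have near-identical copies are therefore uncertain.

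Rows naming no gene (35.6% to 55.5% of counts in the 6 libraries) were dropped. Of 41388 gene identifiers, 40254 matched GENCODE M21 (GRCm38), the source of symbols, lengths and 3′ UTRs. The filterByExpr function (minimum count 10, total 15) kept 13364 genes. The edgeR 4.0.16 quasi-likelihood method with TMM scaling (factors 1.07 to 1.22 in PAP TRAP and 2.25 to 2.46 in cortex TRAP) fitted all 12 libraries with 1 mean per group. P-values were adjusted by Benjamini-Hochberg over the 13364 genes and called at 0.05. Changes are log2 values with the SE from the fit of all 12 libraries, and levels are normalized CPM per library.

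The members and the 42 lists were chosen with earlier results of these data known. Lists are described by counts and medians, with no set test. Their counts of called members stand against 19.3% higher and 14.6% lower over all genes tested. The text names the 12 largest rises and falls with no overlap and an average log2 CPM of 4 or more, over all called genes and within those higher in cortex TRAP than in cortex input. It also names up to 2 members per list and direction by smallest p, the 10 most read nuclear genes called higher, lower or not called, and a fixed set. Names outside the rule are marked, and some genes that it names are not reported here.

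Alternatives were RLE scaling, no filter, DESeq2 1.42.0, only the 6 libraries, a replicate block, glmTreat with a minimum fold of 1.5, no mitochondrial genes, and each of the 6 libraries left out in turn. Others corrected the offsets for GC content, for transcript length, or for GC content with the replicate block (loess with span 0.3, and 99.4% of genes had a value). Data were also simulated from these libraries, with equal means in the 2 TRAP groups but for 100 genes changed by each size. No single-library outliers were added. There the fit found 11% of log2 changes of 1 and 64% of log2 changes of 2, with 7 false calls among 12862 genes. In the real data 33.9% of genes were called, so that false count is no error rate for them.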

Additional observations from a re-analysis of the deposited data

Results flagged for a closer look

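For 17 genes picked by the naming rule, every library of one immunoprecipitate lay on one side of its own inputs and every library of the other on the opposite side. The share of such genes among all genes tested was not computed. The rule favours large differences between the 2 immunoprecipitates, so the count and its direction partly follow from that choice. The difference between the 2 enrichments was not tested here, and the values share libraries with the comparison of the report. Of these genes, 16 were below input in cortex TRAP and above input in PAP TRAP. In log2 change over the respective input, the kinase Camk2a was at -3.11 in cortex TRAP and 1.70 in PAP TRAP, the adenylyl cyclase Adcy1 at -3.09 and 0.87, the scaffold Bsn at -3.30 and 0.72, the scaffold Shank1 at -2.13 and 1.18, and Arc at -1.69 and 1.63. The RNA-binding proteins Celf4 and Purb were at -3.11 and 0.87 and at -1.23 and 0.66, and Zfp365 at -3.02 and 1.15. The cytoskeletal genes of the set were Dst at -2.06 and 1.89, Map1a at -3.10 and 0.91, Map2 at -1.87 and 0.75, and Myo5a at -3.29 and 1.36. Mbp was at -2.63 and 1.75, Lcp1 at -2.56 and 3.48, the coat adaptor Ap1b1 at -1.17 and 0.96, and Chd3 at -2.60 and 0.69. In the other direction, Atp5j2, a small subunit of the mitochondrial ATP synthase, was at 1.58 and -0.96.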

How the results depend on the processing

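The number of genes called lower in PAP TRAP was 1949 with all libraries, 1285 in a fit of the 6 TRAP libraries alone and 1179 to 1969 with 1 library left out. Over the other alternatives it lay between 1311 and 2340 (DESeq2). Genes called higher stayed between 2046 and 2913 over all 16 alternatives, and genes called in either direction between 3484 and 5253. For the 137 genes followed through the alternatives, 2097 of the values kept direction and side of the threshold, 70 lost their call, 5 gained one and 13 changed sign. With length-corrected offsets, Zbtb20 turned to -1.01, Fat1 to -0.19, Neo1 to -0.011, Itpr2 to -0.30, Ank2 to -0.67, Ncan, neurocan, to -0.66 (from 0.61), Slc1a2 to -1.32 and Scd2 to -0.56. With 1 library left out, Cpe ranged from -0.13 to 0.40, Gpm6b from -0.079 to 0.63, Malat1 from -0.69 to 0.10 and Snap25 from -0.015 to 0.36, and none of these was called. The cause of these changes was not tested, beyond the construction of the length correction, which shared 2962 calls with the fit without it, 2947 of them in the same direction.

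Whether equal replicate numbers mark paired samples is not known here. Across genes, same-numbered libraries of the 2 groups deviated together with correlations of 0.03, 0.03 and 0.06, in each case the highest for that PAP TRAP library. Pairs with unlike numbers had -0.05 to 0.02. These values are small and do not settle the question. With the replicate number as a block, 4564 genes were called, 2577 higher and 1987 lower, and 4288 were shared with the fit without the block. With GC-corrected offsets as well, 4520 were called. On simulated data of this depth and number of libraries, with equal TRAP means for most genes, 11% of log2 changes of 1 and 64% of log2 changes of 2 were found.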
